A study of Mus musculus with 72 samples.

Results

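The comparison concerns the livers of wild-type (WT) C57BL/6 mice at 2 opposite times of day, zeitgeber time (ZT, hours after lights on) 8, late in the rest phase of a mouse, and ZT20, late in its active phase. The members are the 6 arrays whose titles name WT livers of the SIRT1 cohort at ZT 8 and ZT 20, 3 at each time, out of 72 arrays in the series. The animals lived under 12 h of light and 12 h of dark, and livers were taken every 4 h from ZT0 to ZT20. The WT group of this cohort carries no allele or agent in the labels. The sources used here give neither age nor sex of the animals. The other groups that the text draws on are livers labelled SIRT1 KO, from the same C57BL/6 cohort and described as liver-specific knockouts, and WT livers of a second cohort whose strain is given as 129 mixed. The promoter that drives the liver-specific deletion is not named in the labels. RNA was measured on single-colour Affymetrix arrays. All levels are log2(intensity + 16), a difference is ZT20 minus ZT8 on that scale, and each fold is the antilog of that difference, so that changes of weakly expressed genes are understated. Levels of different genes are not compared, since each probe set has its own brightness.

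The mammalian clock is a feedback loop of transcription. ARNTL (BMAL1) pairs with CLOCK or NPAS2 and binds E-box sequences in the genes of its own repressors, the PER and CRY proteins, and in those of the nuclear receptors NR1D1 and NR1D2 (REV-ERB alpha and beta), which in turn repress Arntl through ROR elements (ROREs). Other E-box targets, among them DBP, bind D-box sequences in further genes. In the liver this loop meets the cycle of feeding and fasting, because mice eat mainly in the dark, and genes of glycogen, lipid, bile and chaperone function are known to follow the clock, food or body temperature.

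Whether replicates are separate mice is not stated in the labels. The p-values therefore reflect only how far arrays spread within a group, pooled over the 36 arrays of the cohort, and that spread may be technical. Arrays of the same time correlated at 0.973 to 0.989 over the tested genes and arrays of different times at 0.961 to 0.980, and 0 pairs were identical. The closest pair across times was replicate 1 at ZT8 with replicate 1 at ZT20. Median intensity ran from 49.7 to 53.4. Of 12 hepatocyte markers, at a median level of 12.77, 0 were called, beside 6.69% of all tested genes. Markers of Kupffer cells, the resident macrophages, had a lower mean at ZT20 in 10 of 12 genes (median −0.34), with 0 called. Their summed intensities were 4216 to 6605 at ZT8 and 2937 to 5775 at ZT20, which overlap. The median of the same list was 0.11 in the SIRT1 KO-labelled livers and −0.88 in the mixed-background WT livers. The summed markers of the other 8 lists (lymphocyte, stellate, endothelial, bile duct, neutrophil, erythroid, pancreas and fat) overlapped between the times as well, with 0 called. Stellate and endothelial lists held 10 tested genes each, and lymphocyte, fat and bile duct lists 7, 4 and 3. Neutrophil, erythroid and pancreas lists held 1 each, so the absence of calls says little about these cells. In whole liver, fewer cells of a type and less RNA per cell cannot be told apart.

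Of 13308 tested genes, 890 (6.69%) differed between the times at an adjusted p under 0.05 (limma, Benjamini-Hochberg), 510 of them (3.83%) higher at ZT20 and 380 (2.86%) lower. Most changes were moderate: the median size among called genes was 0.52, while 68 genes were at least 2-fold higher and 29 at least 2-fold lower. The 3 arrays of one time lay wholly above or below those of the other in 852 of the 890, against 3157 (23.7%) of all tested genes. The 890 were called from these same arrays, so their larger share follows in large part from the call. The median change over all genes was −0.01. Without ZT8 replicate 2 the count was 521 and without ZT20 replicate 2 it was 509, while leaving out any of the other 4 arrays gave 597 to 974. With array medians centred, 500 genes were higher and 697 lower, and without ZT8 replicate 1 there were 338 higher and 409 lower. Which direction holds more genes thus depends on the scaling and on that array.

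**Figure D1:**
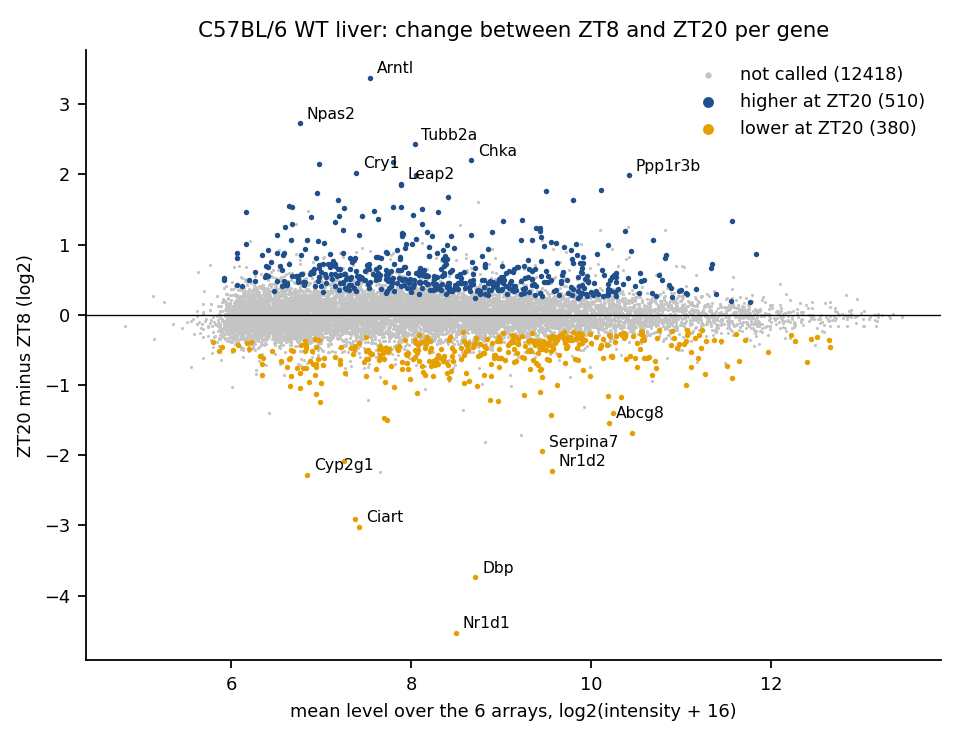
Each point is 1 of 13308 tested genes in C57BL/6 WT liver: the horizontal axis is its mean level over the 6 arrays, log2(intensity + 16), and the vertical axis its ZT20 minus ZT8 difference on the same scale. Blue genes (510) were called higher and orange genes (380) lower at ZT20, and the clock genes Nr1d1, Dbp, Arntl and Ciart lie farthest from 0.

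Of 4 measured activators of the clock 3 were called higher at ZT20 and 0 lower, beside 3.83% and 2.86% of all tested genes. The list median was 1.86 beside −0.01 over all genes. Arntl, which encodes BMAL1, read 5.96, 5.61 and 6.00 at ZT8 and 9.48, 9.10 and 9.10 at ZT20. Its arrays did not overlap, and the difference of 3.37 ± 0.28 (SE), or 10.4-fold, was the largest increase of all (limma adjusted p = 1.21e-09). Npas2, which can stand in for Clock, read 5.46, 5.42 and 5.32 against 8.42, 8.15 and 7.81. That is a rise of 2.73 ± 0.28, or 6.62-fold (limma adjusted p = 8.36e-08), from a level at ZT8 that lies under the 6.00 at which the filter on mean levels begins. The ZT8 levels of Arntl lie at or under that 6.00 as well. Clock itself rose less, by 0.99 ± 0.11 or 1.99-fold (limma adjusted p = 2.91e-07), from 9.63 to 9.76 at ZT8 to between 10.58 and 10.87 at ZT20. Rora, whose product activates through ROREs, read 9.93, 9.63 and 9.63 against 10.04, 9.67 and 9.65. The times overlapped and the difference of 0.06 did not pass (limma adjusted p = 0.825). Without ZT20 replicate 1 it was −0.068. The 3 calls among activators held with each of the 6 arrays left out.

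The negative arm went the other way in most members, with a median of −1.49. Of 9 measured repressors 7 were called lower at ZT20 and 1 higher, beside 2.86% and 3.83% of all tested genes. Nr1d1 read 10.29, 10.74 and 11.25 at ZT8 and 6.78, 6.38 and 5.54 at ZT20, without overlap. The difference of −4.53 ± 0.24 was the largest of all genes tested, a level 23.1-fold lower (limma adjusted p = 6.03e-14). Its relative Nr1d2 went from 10.62, 10.64 and 10.79 to 8.37, 8.69 and 8.31, a difference of −2.23 ± 0.15 (limma adjusted p = 1.63e-11). Ciart, the repressor CHRONO, read 8.92, 9.07 and 8.82 against 6.12, 5.90 and 5.73, a difference of −3.02 ± 0.20 or 8.10-fold (limma adjusted p = 6.34e-12). All 3 genes had their arrays far apart, the closest gap being that of Nr1d2, from 10.62 down to 8.69. The 5.54 of Nr1d1 and the 5.90 and 5.73 of Ciart lie under the 6.00 at which the filter on mean levels begins.

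The period and cryptochrome genes did not move as a block. Per3 read 8.42, 8.47 and 8.55 at ZT8 and 6.96, 6.90 and 7.09 at ZT20, and fell by 1.49 (limma adjusted p = 1.51e-04). Per1 read 9.0, 9.05 and 9.16 against 8.77, 7.92 and 7.61, a difference of −0.97 ± 0.27 (limma adjusted p = 0.0251). The ZT20 array of replicate 1 lay nearest to those of ZT8. The call of Per1 ended without any 1 of the other 5 arrays, at an adjusted p of 0.050 to 0.16. Cry2 differed by −0.52 ± 0.14 (limma adjusted p = 0.0222), without overlap, from 8.57, 8.73 and 8.92 to 8.25, 7.99 and 8.41. Its call ended without ZT8 replicate 2 (−0.52, adjusted p = 0.064), ZT8 replicate 3 (−0.43, 0.12) or ZT20 replicate 2 (−0.41, 0.17). Cry1, the other cryptochrome, was the 1 repressor called higher at ZT20. It read 6.49, 6.37 and 6.27 at ZT8 and 8.69, 8.14 and 8.37 at ZT20, a rise of 2.02 ± 0.16 or 4.06-fold (limma adjusted p = 3.84e-10), so the 2 cryptochromes changed in opposite directions. Per2 shares its probe set with a predicted gene and was read outside the main fit: it was 8.53, 8.33 and 8.23 against 8.31, 8.42 and 8.95, an overlapping pair of groups that differed by 0.20 (limma adjusted p = 0.765 over all probe sets). The E-box repressor Bhlhe41 (DEC2) read 7.30, 8.67 and 8.94 against 5.99, 6.05 and 6.60, a difference of −2.09 ± 0.37 (limma adjusted p = 3.63e-04), with ZT8 replicate 1 well under the other ZT8 arrays. Its relative Bhlhe40 (DEC1) differed by −0.41 with overlap (limma adjusted p = 0.402).

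**Figure D2:**
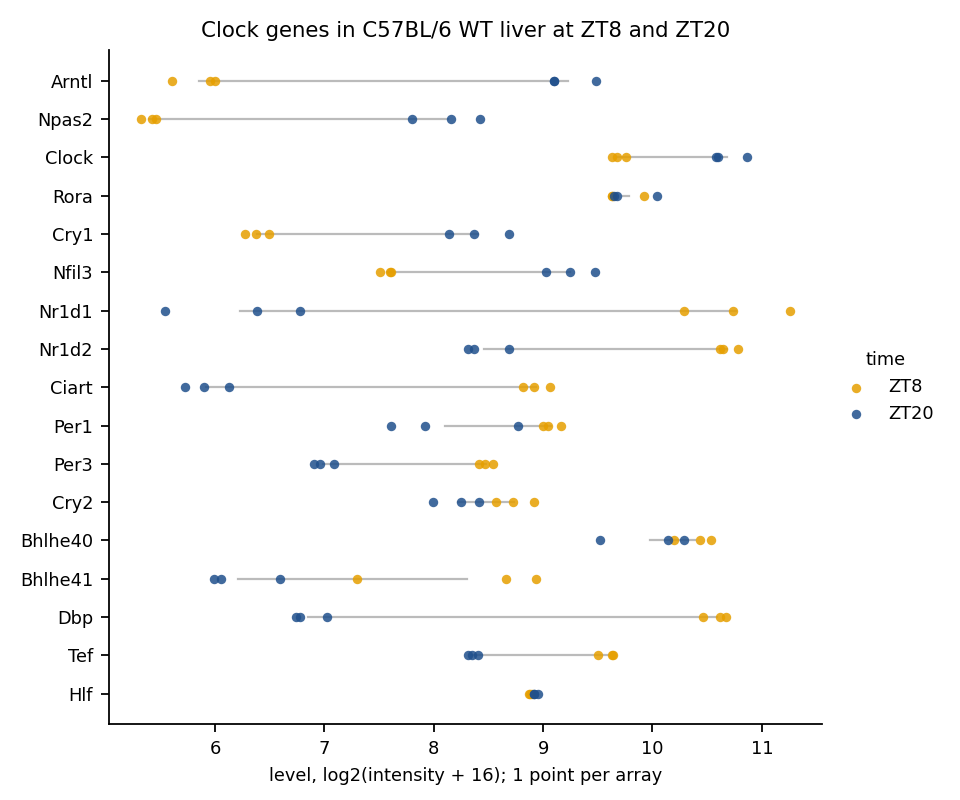
Levels of 17 clock genes, log2(intensity + 16), with 1 point for each of the 3 arrays at ZT8 (orange) and at ZT20 (blue) and a line between the 2 group means. Arntl, Npas2, Clock, Cry1 and Nfil3 lie to the right at ZT20. Hlf lies slightly to the right without overlap, with both groups between 8.87 and 8.95. Rora and Bhlhe40 overlap, and the remaining genes lie to the left.

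Among the proline and acidic-rich bZIP factors, which activate through D-boxes, Dbp read 10.46, 10.67 and 10.62 at ZT8 and 6.78, 6.74 and 7.03 at ZT20. The groups lay far apart, with a difference of −3.74 ± 0.35 or 13.4-fold (limma adjusted p = 1.63e-08). Tef differed by −1.24 ± 0.16 (limma adjusted p = 3.56e-06), with ZT8 arrays of 9.63, 9.50 and 9.64 and ZT20 arrays of 8.31, 8.35 and 8.40. A second, dim probe set of Tef gave −0.44. Hlf, the third member of the family, read 8.87 to 8.90 against 8.92 to 8.95. Its difference of 0.05 ± 0.12 did not pass (limma adjusted p = 0.875), and with centred medians it was −0.0021. Nfil3, a repressor that binds the same D-boxes, rose from 7.61, 7.51 and 7.60 to 9.47, 9.25 and 9.03, by 1.68 ± 0.21 or 3.20-fold (limma adjusted p = 1.96e-06).

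Promoter windows from 250 bases before to 50 after each annotated start (RefSeq, GRCm38.p6) were matched by symbol for 10455 of the 13308 tested genes, 729 of them called. Stretches are shown for the called genes of largest change that hold an E-box, D-box, RORE or cyclic AMP element (CRE) upstream of the start, and for 3 clock genes chosen after their values were seen. Each is printed 5′ to 3′ on the gene's strand with the motif in capitals. Ciart, 8.10-fold lower at ZT20, held 3 E-boxes, of which the first begins at −116 and the last at −44 from the start. Bhlhe41 and Per1 held 1 each, and Per3 held 2 D-boxes. Arntl, Npas2, Nr1d1, Nr1d2 and Dbp, which changed more than Bhlhe41, were not among the called genes with any of these motifs before a start. Whether each of them had a matched window is not given here.
Ciart, 3 E-boxes, chr3:95882247-95882364, minus strand: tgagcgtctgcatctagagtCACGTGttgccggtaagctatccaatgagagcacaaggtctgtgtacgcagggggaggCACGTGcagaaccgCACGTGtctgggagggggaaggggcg
Bhlhe41, E-box, chr6:145865548-145865593, minus strand: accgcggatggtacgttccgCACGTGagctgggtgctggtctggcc
Per1, E-box, chr11:69098763-69098808, plus strand: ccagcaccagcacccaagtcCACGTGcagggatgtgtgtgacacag
Per3, 2 D-boxes, chr4:151044796-151044890, minus strand: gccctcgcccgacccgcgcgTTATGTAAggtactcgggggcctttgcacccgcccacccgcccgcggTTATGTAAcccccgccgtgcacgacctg

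Among genes higher at ZT20, Cry1 also held an E-box, at −60 from the start, so that E-boxes were found in clock genes of both directions. Nfil3 held an RORE, read here on the opposite strand, that begins at −12 from the start. Slc45a3, a solute carrier of the sugar transporter type, has more than 1 annotated start and held a D-box before one, which like that RORE matches on the opposite strand, and an RORE before another. Tubb2a, a beta tubulin, held a CRE that begins at −59 from the start.
Nfil3, RORE, chr13:52981040-52981071, minus strand: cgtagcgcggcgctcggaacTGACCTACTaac
Slc45a3, RORE, chr1:131970471-131970519, plus strand: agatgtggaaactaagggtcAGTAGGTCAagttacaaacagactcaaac
Slc45a3, D-box, chr1:131962676-131962723, plus strand: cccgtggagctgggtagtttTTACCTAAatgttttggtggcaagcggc
Tubb2a, CRE, chr13:34078040-34078087, minus strand: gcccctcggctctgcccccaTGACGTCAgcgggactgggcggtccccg

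Counted over windows on both strands, the E-box CACGTG stood in 62 of 436 windows (14.2%) of genes lower at ZT20, in 50 of 530 (9.43%) of genes higher at ZT20 and in 9.63% of all 13245 windows. The RORE ANTAGGTCA stood in 8 of 530 windows (1.51%) of higher genes, in 0 of 436 of lower genes and in 0.506% of all. The D-box TTANGTAA stood in 2.45%, 1.83% and 1.57% of windows of higher, lower and all genes, and the CRE TGACGTCA in 3.02%, 1.15% and 2.74%. The sterol element TCACNCCAC stood in 0.755%, 1.61% and 1.2%. These shares are descriptions without a test, a gene with several starts counts several times, and a match is not a bound site.

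Of 13 measured clock-controlled genes 4 were called higher and 4 lower, beside 3.83% and 2.86% of all tested genes. Cdkn1a, the cell cycle inhibitor p21, rose from 5.88, 5.96 and 5.89 to 8.24, 7.82 and 8.09, by 2.14 ± 0.40 or 4.41-fold (limma adjusted p = 6.25e-04). Its ZT8 levels lie under the 6.00 at which the filter on mean levels begins. Its arrays did not overlap, and its spread over the day was wide at ZT0 (8.07 ± 0.97, SD, n = 3). The ubiquitin ligase gene Lonrf3 rose by 1.53 and Leo1, of a complex that travels with RNA polymerase II, by 0.72, and the vasopressin receptor Avpr1a was the other gene called higher. Coq10b, which binds coenzyme Q, fell by 1.21, from between 9.40 and 9.62 to between 8.24 and 8.31. Usp2, a deubiquitinase, fell by 1.43 and Wee1, the kinase that holds back mitosis, by 1.11. The call of Wee1 ended without ZT20 replicate 1 (−0.83, adjusted p = 0.055). Rgs16, a regulator of G protein signalling singled out after its values were seen, read 5.92, 10.06 and 10.51 at ZT8 against 5.87, 5.93 and 5.95 at ZT20. These ZT20 levels also lie under the 6.00 of the filter. One ZT8 array, replicate 1, thus lay within the range of ZT20 while the other 2 were far above it, so the difference of −2.91 ± 0.78 (limma adjusted p = 0.0190) is a mean over unlike arrays. The same array was the one low for Bhlhe41 and high for the glycogen gene Ppp1r3b (10.16 against 9.11 and 9.01). What sets it apart in these genes, picked after their values were seen, was not tested. Nampt, the rate-limiting enzyme of NAD salvage, differed by 0.01 and Noct, a phosphatase of the deadenylase family, by −0.09, neither past the threshold.

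The 2 times were not always the extremes of the day. Over the 6 times, ZT20 had the highest group mean in 324 (63.5%) of the 510 genes called higher there, ZT16 in 89 and ZT0 in 85. The lowest mean of these genes fell at ZT8 in 316 and at ZT12 in 170. Of the 380 genes called lower at ZT20, 259 (68.2%) were highest at ZT8 and 89 at ZT12, and 195 were lowest at ZT20 and 124 at ZT0. Over all tested genes the highest mean fell at ZT20 in 15% and at ZT8 in 15.9%. The called genes were picked for a difference between these times in the same arrays, so their larger shares follow in part from that choice. Arntl was highest at ZT0 (9.45 ± 0.03, SD, n = 3) and was still at 6.20 ± 0.26 at ZT12. Nr1d1 peaked at ZT4 (11.07 ± 0.16) and Dbp at ZT8, and Dbp reached its lowest mean at ZT0 (5.75 ± 0.20). Per1, at −0.97 between ZT8 and ZT20, ran from 9.38 ± 0.22 at ZT12 to 5.86 ± 0.59 at ZT0, so ZT20 caught it midway through its fall. At the other phases 12 h apart, ZT12 minus ZT0 called 1308 genes and ZT16 minus ZT4 called 831 in the same fit.

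**Figure D3:**
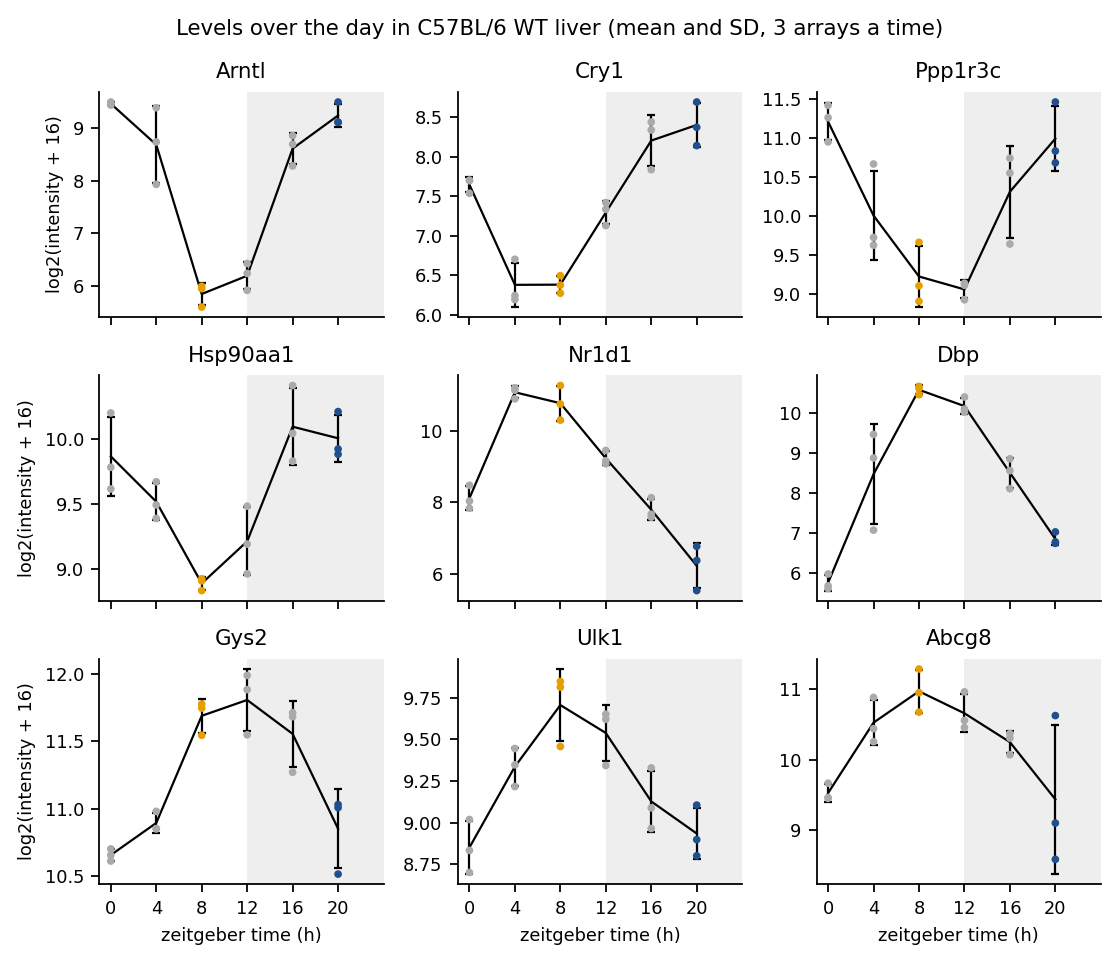
Levels of 9 genes over the day in C57BL/6 WT liver, log2(intensity + 16) against zeitgeber time in hours, with each of 3 arrays a time as a point, the mean as a line, SD as bars and the dark phase in grey. ZT8 is in orange and ZT20 in blue. Arntl, Cry1, Ppp1r3c and Hsp90aa1 are low at ZT8 and high at ZT20, while Nr1d1, Dbp, Gys2, Ulk1 and Abcg8 are high at ZT8.

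Beyond the clock, the largest increases at ZT20 were found in genes of varied function. Tubb2a read 7.48, 6.06 and 6.94 at ZT8 and 9.75, 8.89 and 9.13 at ZT20, a rise of 2.43 ± 0.32 or 5.39-fold (limma adjusted p = 6.09e-06). Chka, choline kinase alpha, which starts the CDP-choline route to phosphatidylcholine, read 7.82, 7.34 and 7.54 against 10.26, 9.55 and 9.50, a rise of 2.20 ± 0.30 (limma adjusted p = 7.41e-06). Slc45a3 rose by 2.17 ± 0.24, from 6.48, 6.79 and 6.88 to 8.72, 9.02 and 8.93. The 15 largest increases were taken only from genes without overlap between the times, so the separate groups of these 3 follow from that choice. A second, dim probe set of Chka gave 0.31. Also among the 15 largest increases were Celsr1, an atypical cadherin of planar cell polarity (1.99), Leap2, a secreted liver peptide that blocks the ghrelin receptor (1.87), the linker histone H1f2 (1.77), Dhrs9, a short-chain dehydrogenase of retinoid and steroid metabolism (1.73), and the galectin-like gene Lgalsl (1.64).

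The largest decreases outside the clock lists included secreted and signalling proteins. Cyp2g1, a cytochrome P450, read 7.66, 8.35 and 7.97 at ZT8 and 6.11, 5.26 and 5.75 at ZT20, a difference of −2.28 ± 0.34 (limma adjusted p = 4.50e-05). The 5.26 and 5.75 lie under the 6.00 at which the filter on mean levels begins. Serpina7, thyroxine-binding globulin, read 9.83, 11.27 and 10.19 against 8.52, 8.32 and 8.63, a difference of −1.94 ± 0.43 (limma adjusted p = 0.00403). One ZT8 array was far above the others, and the call ended without ZT8 replicate 2 (−1.52, adjusted p = 0.053). Gpcpd1, which splits glycerophosphocholine and so stands on the breakdown side of choline lipids, read 10.46, 11.68 and 11.74 against 9.39, 9.64 and 9.82 and fell by 1.68. Syt1, a calcium sensor of vesicle fusion, fell by 1.47, Fbxo21, an F-box subunit of ubiquitin ligases, by 1.40 and the receptor tyrosine kinase Erbb4 by 1.25. In Gpcpd1 and Fbxo21 (10.42, 11.14 and 11.29) ZT8 replicate 1 was again the array nearest to the ZT20 level. In other genes it was the farthest, as in H1f2 (8.01 against 9.06 and 8.80) and Slc45a3 (6.48 against 6.79 and 6.88). No share over all genes is given here.

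Of 9 measured genes of glycogen storage 2 were called higher and 4 lower, beside 3.83% and 2.86% of all tested genes. The list median was −0.22. Without ZT8 replicate 3 the list held 2 higher and 2 lower, and without any 1 of the other arrays 2 higher and 3 or 4 lower. The 2 that rose are glycogen-targeting subunits of protein phosphatase 1, which bring it to glycogen synthase. Ppp1r3b read 10.16, 9.11 and 9.01 at ZT8 and 11.21, 11.51 and 11.53 at ZT20, a rise of 1.99 ± 0.26 or 3.97-fold (limma adjusted p = 4.37e-06), and a second probe set gave 2.30. Ppp1r3c read 8.91, 9.11 and 9.66 against 11.47, 10.84 and 10.68, a rise of 1.77 ± 0.29 (limma adjusted p = 1.53e-04). Neither gene had overlapping groups. Liver glycogen synthase itself, Gys2, fell: it read 11.55, 11.75 and 11.78 against 11.01, 10.51 and 11.03, a difference of −0.84 ± 0.13 or 1.79-fold (limma adjusted p = 4.85e-05). Ugp2, which makes the UDP-glucose that the synthase uses, fell by 0.42, and the other 2 genes called lower were Stbd1, which anchors glycogen to membranes (−0.49), and Phka2, a subunit of phosphorylase kinase (−0.43). Glycogen phosphorylase, Pygl, differed by 0.05 and did not pass.

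Of 14 genes of glucose output and fasting, 1 was called higher and 1 lower, beside 3.83% and 2.86% of all tested genes. G6pc, the phosphatase that releases glucose, read 11.46, 11.16 and 11.59 at ZT8 and 12.64, 12.10 and 12.08 at ZT20, and rose by 0.87 ± 0.16 (limma adjusted p = 5.79e-04). Pck1, which starts gluconeogenesis from oxaloacetate, read 12.84, 12.62 and 12.73 against 12.69, 11.58 and 11.91, with 1 ZT20 array, replicate 1, among those of ZT8. Its difference of −0.67 ± 0.19 (limma adjusted p = 0.0279) lost the call without any array but ZT20 replicate 1, and was −0.43 (adjusted p = 0.27) without ZT20 replicate 2. G6pc and Pck1, often treated as a pair, therefore differed in opposite directions between the times. Ppargc1a, a coactivator of both, differed by −0.18 and Igfbp1 by 0.14, neither past the threshold.

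Of 17 lipogenic genes 3 were called higher and 0 lower (median 0.04), beside 3.83% higher and 2.86% lower of all tested genes, and 3 and 1 with centred medians. Without ZT20 replicate 3 the list held 1 higher and 0 lower. Insig2, which retains the sterol-regulated factors SREBP in the endoplasmic reticulum, read 9.85, 9.95 and 10.18 at ZT8 and 10.90, 10.91 and 10.89 at ZT20, a rise of 0.91 ± 0.14 (limma adjusted p = 4.37e-05). Acacb, the acetyl-CoA carboxylase whose product restrains fatty acid entry into mitochondria, rose by 1.07 (limma adjusted p = 0.0168) and Thrsp (Spot 14) by 1.19 (0.0445). The call of Acacb ended without ZT8 replicate 1 (adjusted p = 0.094), ZT20 replicate 2 (0.071) or ZT20 replicate 3 (0.080), and that of Thrsp without any of 4 arrays, at 0.069 to 0.21. Fasn, fatty acid synthase, differed by 0.36, Srebf1 by −0.39 and the phosphatidate phosphatase Lpin1 by −0.89 (limma adjusted p = 0.052), none past the threshold. In cholesterol synthesis 1 gene of 19 was called higher, the kinase Pmvk (0.63), and 1 lower, the sterol dehydrogenase Nsdhl (−0.43). The call of Nsdhl ended without any 1 of the 6 arrays, at 0.061 to 0.091, and that of Pmvk without any array but ZT20 replicate 2, at 0.056 to 0.14.

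Of 25 genes of fatty acid oxidation and of the PPARA response, 4 were called higher and 2 lower, beside 3.83% and 2.86% of all. Without ZT8 replicate 2 the list held 2 and 2. Cpt1a, the gate of fatty acids into mitochondria, read 11.88 ± 0.12 (SD, n = 3) at ZT8 and 11.15 ± 0.13 at ZT20, a difference of −0.73 ± 0.09 (limma adjusted p = 4.37e-06). Ppara, the nuclear receptor for which the list is named, fell by 0.58 (limma adjusted p = 0.00385), from between 10.26 and 10.66 to between 9.73 and 10.14. Neither gene overlapped between the times. Going up were Plin5, a lipid droplet coat protein, by 1.30 ± 0.16 (limma adjusted p = 2.80e-06), the pyruvate dehydrogenase kinase Pdk4 by 1.42, Hacl1 of alpha-oxidation by 0.72 and the thioesterase Acot1 by 1.02. Plin5 read 7.18, 7.40 and 7.86 against 8.64, 8.88 and 8.81. Pdk4 read 7.60, 6.65 and 7.71 against 9.42, 8.52 and 8.26, and its call ended without ZT8 replicate 2 (1.08, adjusted p = 0.061). Enzymes of the mitochondrial spiral such as Acadm (−0.02) and Hadha (−0.10) did not pass.

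In the bile and sterol list of 17 genes, 2 were called lower and 1 higher, beside 2.86% and 3.83% of all tested genes. The 2 that fell encode the partners of 1 transporter, ABCG5 with ABCG8, which passes cholesterol into bile. Abcg8 read 11.29, 10.68 and 10.95 at ZT8 and 10.63, 8.58 and 9.09 at ZT20, a difference of −1.54 ± 0.30 (limma adjusted p = 0.00117). Abcg5 read 11.26, 10.63 and 10.89 against 10.78, 9.15 and 9.31, a difference of −1.17 ± 0.26 (limma adjusted p = 0.00370). In both genes ZT20 replicate 1 stayed near the ZT8 arrays while the other 2 were far lower, and Abcg5 overlapped. The call of Abcg5 ended without ZT20 replicate 2 (−0.88, adjusted p = 0.057). Baat, which joins bile acids to taurine and glycine, rose by 0.34 (limma adjusted p = 0.0176). Its call ended with centred medians (0.29, adjusted p = 0.058) and without ZT8 replicate 1 (0.23, 0.15), ZT20 replicate 2 (0.30, 0.098) or ZT20 replicate 3 (0.29, 0.094). Cyp7a1, the rate-limiting enzyme of bile acid synthesis, differed by 0.28 and Cyp8b1 by 0.69 without passing.

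Of 16 heat shock genes 6 were called higher at ZT20 and 0 lower, beside 3.83% and 2.86% of all tested genes. Their median was 0.43 beside −0.01 over all genes. Leaving out any of the 6 arrays, quantile normalization or centred medians left 6 or 7 higher and 0 lower. Hsp90aa1, the inducible HSP90, read 8.93, 8.91 and 8.84 at ZT8 and 9.92, 9.88 and 10.21 at ZT20, a rise of 1.11 ± 0.15 or 2.16-fold (limma adjusted p = 1.18e-05). Hspa4l, a nucleotide exchange factor for HSP70, rose by 1.17 ± 0.15, from 7.23, 7.33 and 7.39 to 8.34, 8.35 and 8.75 (limma adjusted p = 4.37e-06). Neither gene had overlapping groups. Fkbp4, an HSP90 co-chaperone, rose by 0.73, Ahsa1, which stimulates the HSP90 ATPase, by 0.47, Hsph1 by 1.13 and the HSP70-HSP90 adaptor Stip1 by 0.61. The constitutive HSP70 gene Hspa8 differed by 0.03, the mitochondrial Hspd1 by −0.01 and the stress-induced Hspa1b by 0.49, none past the threshold. The 2 cold-inducible RNA-binding genes had lower means: Cirbp read 6.91, 7.39 and 7.77 against 7.17, 7.0 and 6.86, overlapping and not past the threshold (−0.35, limma adjusted p = 0.279). Rbm3, on a probe set shared with its pseudogene, read 10.39, 10.36 and 10.25 against 10.09, 9.95 and 9.54, without overlap (−0.47, limma adjusted p = 0.0442 over all probe sets).

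In the endoplasmic reticulum folding list 8 of 27 genes were called higher and 3 lower, beside 3.83% and 2.86% of all tested genes. With centred medians 3 were higher and 4 lower, so the balance of this list is not settled. The larger increases were in luminal factors. Creld2 read 9.03, 8.66 and 8.75 at ZT8 and 9.98, 9.71 and 9.95 at ZT20, a rise of 1.06 ± 0.24 (limma adjusted p = 0.00444). Sdf2l1 rose by 0.87 ± 0.19 (limma adjusted p = 0.00395), from between 9.47 and 9.78 to between 10.40 and 10.68, without overlap. The HSP40 co-chaperones Dnajb11 and Dnajc3 rose by 0.55 and 0.30. The call of Dnajc3 ended with centred medians (0.25, limma adjusted p = 0.0501). The master chaperone BiP, Hspa5, rose by 0.37 (limma adjusted p = 0.0417). Called lower were Herpud1, of protein disposal (−0.62), the glutathione-degrading Chac1 (−0.76) and the stress sensor Atf6 (−0.27). Without ZT20 replicate 1 the list held 4 higher and 2 lower, and without ZT20 replicate 2 it held 7 and 0.

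**Figure D4:**
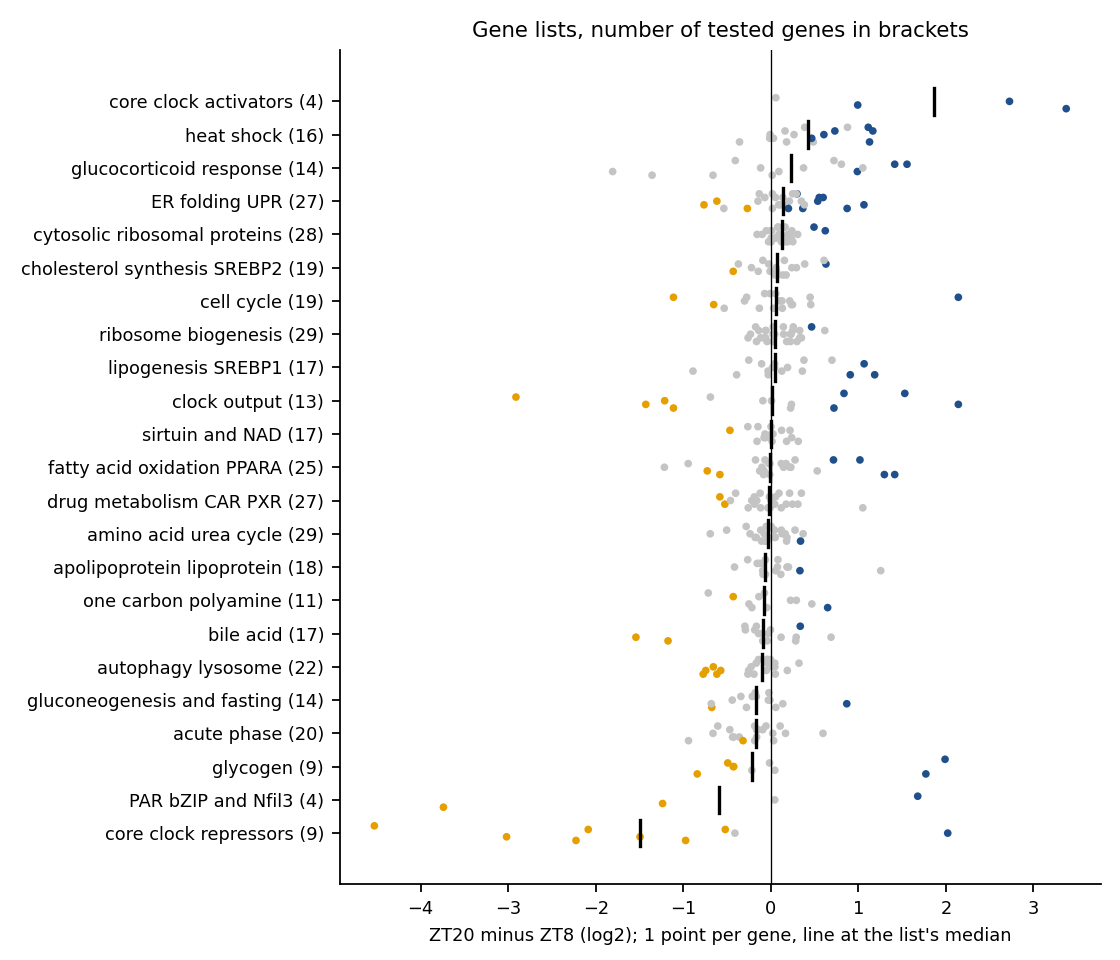
ZT20 minus ZT8 differences (log2) of the members of 23 gene lists, 1 point per gene, in blue where called higher, in orange where called lower and in grey otherwise, with a line at each list's median. The clock lists have the widest spread, the heat shock list has 6 called genes on the right and 0 on the left, and the autophagy list has 5 on the left and 0 on the right. Of all tested genes 3.83% were called higher and 2.86% lower.

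Autophagy genes that changed were lower at ZT20. Of 22 measured, 0 were called higher and 5 lower, beside 3.83% and 2.86% of all tested genes. The list median was −0.10. Ulk1, the kinase that starts autophagy, read 9.46, 9.85 and 9.81 at ZT8 and 9.10, 8.80 and 8.90 at ZT20, a difference of −0.77 ± 0.12 (limma adjusted p = 7.62e-05). Gabarapl1, which coats the autophagosome membrane, read 11.79, 11.94 and 12.18 against 11.26, 11.34 and 11.33, a difference of −0.66 ± 0.10 (limma adjusted p = 3.13e-05). Fnip1 and Fnip2, partners of folliculin at the lysosome, fell by 0.62 and 0.74, and Atg14 by 0.57. In none of Ulk1, Gabarapl1, Fnip1 and Fnip2 did the groups overlap. The lysosomal proteases Ctsb (−0.05) and Ctsd (0.02) and the membrane proteins Lamp1 (−0.04) and Lamp2 did not pass. With each array left out, 4 to 6 members were lower and 0 or 1 higher, and with quantile normalization 5 were lower and 1 higher.

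Of 14 genes known to respond to glucocorticoids 3 were called higher and 0 lower, beside 3.83% and 2.86% of all tested genes. With centred medians 3 were higher and 1 lower. Ddit4 (REDD1), an inhibitor of mTORC1, rose by 1.56 ± 0.31, from 5.78, 5.91 and 5.91 to 7.24, 7.61 and 7.42 (limma adjusted p = 0.00126). Its ZT8 levels lie under the 6.00 at which the filter on mean levels begins. Tsc22d3 (GILZ) rose by 0.99 ± 0.17, from 7.96, 7.78 and 7.97 to 9.16, 8.72 and 8.81 (limma adjusted p = 3.52e-04), and Pdk4, described above, was the third. Other responders were spread on both sides of 0: Fkbp5 differed by 0.02 and Sgk1 by 0.37, while the metallothioneins Mt1 and Mt2 had lower means (−1.36 and −1.81) at adjusted p-values of 0.25 and 0.27.

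The remaining lists held few called genes, beside 3.83% higher and 2.86% lower of all tested genes. Ribosomal proteins had 2 of 28 higher, Rpl34 (0.62) and Rpl37 (0.49), with a median of 0.13, and the call of Rpl37 ended without ZT8 replicate 3 (0.43, adjusted p = 0.078). Ribosome biogenesis had 1 of 29, Nop16 (0.47), and urea cycle and amino acid genes 1 of 29, Nags (0.34), whose product makes the activator of the urea cycle. The call of Nags ended without ZT8 replicate 2 (0.30, adjusted p = 0.079), ZT8 replicate 3 (0.32, 0.058) or ZT20 replicate 1 (0.28, 0.072). In drug metabolism 0 of 27 were higher and 2 lower, the bile canalicular pump Abcc2 (−0.52, limma adjusted p = 4.55e-06) and the glutathione transferase Gstm3 (−0.58, 0.0498), the latter lost in 11 of 19 other settings. In the sirtuin and NAD list 1 of 17 was lower, the NAD synthetase Nadsyn1 (−0.47), whose call ended without ZT8 replicate 3 (−0.41, adjusted p = 0.072) or ZT20 replicate 2 (−0.39, 0.097), and Sirt1 differed by 0.01. Polyamine genes held Odc1, which makes putrescine, at 0.65 and Sat1, which breaks polyamines down, at −0.43, among 11 measured. The call of Sat1 ended without ZT8 replicates 1, 2 or 3 (adjusted p of 0.12, 0.051 and 0.065) and without ZT20 replicate 3 (−0.27, 0.23). Cyclin E1, Ccne1, was lower by 0.65, lost without ZT8 replicate 2 (adjusted p = 0.061) or ZT20 replicate 2 (0.088), and with Wee1 and Cdkn1a made 2 lower and 1 higher of 19 cell cycle genes. Apoc2 (0.33) was the 1 of 18 lipoprotein genes and Itih4 (−0.32) the 1 of 20 acute phase genes that were called. The call of Apoc2 ended with centred medians (adjusted p = 0.075) and without ZT8 replicates 2 or 3 or ZT20 replicates 1 or 2 (0.069 to 0.20), and that of Itih4 without ZT8 replicates 2 or 3 (0.15 and 0.056) or ZT20 replicate 2 (−0.17, 0.32).

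Livers labelled SIRT1 KO, sampled at the same times in the same cohort, give the same contrast between other arrays, although those arrays also entered the estimate of spread behind the WT test. With the 18 WT arrays alone in the fit, 630 genes were called in WT. In the KO-labelled livers 410 genes (3.08%) were called higher and 863 (6.48%) lower at ZT20, and without KO ZT8 replicate 3 the count of 1273 was 709. The Sirt1 probe set read 8.74 ± 0.18 (SD, n = 18) in the WT and 8.74 ± 0.11 (n = 18) in the KO-labelled arrays, so it does not show the loss. Whether the probe set lies in the deleted part is unknown here. Of the 510 genes higher at ZT20 in WT, 484 (94.9%) had the same sign in KO-labelled livers and 244 (47.8%) were called there, and of the 380 lower genes 369 (97.1%) and 266 (70.0%), beside a same sign in 61.8% of all tested genes. The median change of the higher genes was 0.54 in WT and 0.38 in KO-labelled livers, and that of the lower genes −0.50 and −0.48. The test of the difference between the genotype labels called 0 of 13308 genes (0%, limma interaction), with 1064 at an unadjusted p under 0.05. Arntl rose by 3.83 and Nr1d1 fell by 3.77 in the KO-labelled livers. Serpina7 differed there by −0.24 and Rgs16 by −5.25.

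WT livers of the 129 mixed background gave 171 genes (1.28%) higher and 347 (2.61%) lower at ZT20, 518 in all. Without any 1 array but ZT8 replicate 2 the count was 217 to 284. Of the C57BL/6 genes, 411 of 510 higher (80.6%) and 358 of 380 lower (94.2%) kept their sign, and 108 (21.2%) and 100 (26.3%) were called, with 0 called in the opposite direction. The same sign was found in 58.0% of all tested genes. Medians were 0.21 for the higher and −0.39 for the lower genes. The split into higher and lower genes in the mixed background moved with scaling, from 33.0% higher to 65.7% with quantile normalization and 77.8% with centred medians, and in KO-labelled livers from 32.2% to 43.3% and 48.1%. The test of the difference between the backgrounds, each taken within its cohort, called 13 genes (0.0977%), with 1756 at an unadjusted p under 0.05. With 1 array left out it called 4 to 29, the lowest without C57BL/6 ZT20 replicate 2 and the highest without C57BL/6 ZT20 replicate 1. Clock genes were not among the 13: Arntl differed between the times by 3.35, Dbp by −4.13 and Cry1 by 1.80 in the mixed background.

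In 12 of the 13 genes the ZT20 minus ZT8 difference was more positive in C57BL/6 than in the mixed background. Over all tested genes the median of this difference between backgrounds was 0.09. With centred medians the test called 3 genes, 2 more positive in C57BL/6 and 1 less, so the split depends on the scaling. Celsr1 rose by 1.99 in C57BL/6 and by 0.59 in the mixed background, and Dhrs9 by 1.73 against 0.18. Rbm12b1, an RNA-binding protein gene, differed by 1.25 against −0.28, and Cdcp1, a surface glycoprotein, by 1.14 against −0.27. Nmrk1, a nicotinamide riboside kinase, differed by 0.24 in C57BL/6, where it was not called, and by −1.28 in the mixed background. The 1 gene on the other side was Mug2, a murinoglobulin of the alpha-2-macroglobulin family, at −0.42 in C57BL/6 and 2.05 in the mixed background. The other 7 were B3galt6, Coa4, Neu2, Ntn3, Nupr1l, Poli and Rfxank. Cdkn1a, which rose by 2.14 in C57BL/6, differed by −0.14 in the mixed background, yet the test of that difference did not pass (adjusted p = 0.41). Strain and cohort are the same split in these labels, so that strain, housing and array batch cannot be told apart.

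**Figure D5:**
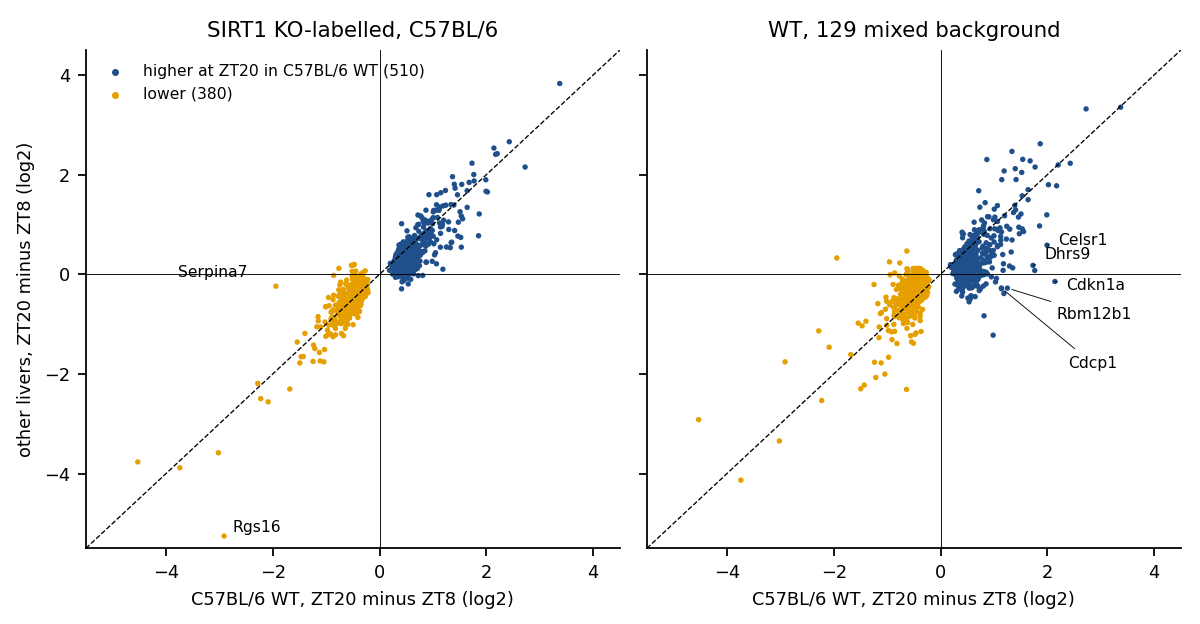
ZT20 minus ZT8 differences (log2) of the 890 genes called in C57BL/6 WT liver (horizontal axis) against the same difference in SIRT1 KO-labelled C57BL/6 livers (left) and in WT livers of the 129 mixed background (right), with genes higher at ZT20 in C57BL/6 WT in blue, lower genes in orange and a dashed line of equality. Most genes lie in the quadrants of equal sign, and Celsr1, Dhrs9, Rbm12b1 and Cdcp1 lie well below the line on the right.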

How the data were processed

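The authors deposited 1 table of probe set intensity on a linear scale for 72 arrays, made with Affymetrix Expression Console 1.1.1 and PLIER 2.0 per the submitters' processing notes. Normalization settings and genome build: not given in the sources used here. Of 41345 probe sets, 23521 carry 1 symbol in the platform annotation, 1814 several and 16010 none. The brightest probe set stood for each of 22180 genes, 21994 of them matched by Entrez identifier. Values were log2(intensity + 16), and genes in the lowest 40% of mean level (under 6.00, all 72 arrays) were not tested. limma 3.58.1 (R 4.3.3) fitted 12 group means over the 36 arrays of the cohort with a trend, and Benjamini-Hochberg adjustment ran over 13308 genes. On simulated data with independent noise, 8%, 58%, 98% and 100% of changes of 0.25, 0.5, 1 and 2 were recovered for this comparison among 13308 genes. Only 50 genes of each size were changed, at WT ZT20 alone. Since the adjusted p depends on how many genes change, recovery in the real data can differ. Precision is limited by how many arrays there are.

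The 6 arrays and the 24 gene lists were chosen with earlier results of these data known. Named genes were the clock, PAR bZIP and cold-inducible lists, the 15 largest increases and 15 largest decreases without overlap, up to 4 called genes with the smallest p per list, and the 5 largest differences each way between labels and between backgrounds. Predicted genes were counted only. List members and genes given outside this rule, among them Rgs16, were chosen after their values were seen.

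Arrays of the same replicate number deviated together from their group means at 0.50, 0.15 and 0.12 in the 6 arrays, so the block was run for them as well. Over the 12 groups the median was −0.0039.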

Additional observations from a re-analysis of the deposited data

Results flagged for a closer look

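13 genes had a ZT20 minus ZT8 difference in C57BL/6 WT livers that differed from that in WT livers of the 129 mixed background, by the test of the difference itself (limma over 72 arrays, adjusted p under 0.05), and 6 of them are named here. The C57BL/6 difference minus the mixed-background difference was 1.41 for Celsr1, 1.55 for Dhrs9, 1.53 for Rbm12b1, 1.41 for Cdcp1 and −2.47 for Mug2. For Nmrk1 it was 1.52, with a difference of 0.24 in C57BL/6 and of −1.28 in the mixed background. With centred medians the calls of Celsr1 (1.19, adjusted p = 0.058), Dhrs9 (1.33, 0.074), Cdcp1 (1.19, 0.074) and Nmrk1 (1.30, 0.058) ended, while those of Rbm12b1 and Mug2 held. Without ZT20 replicate 2 of the C57BL/6 WT the calls of Rbm12b1 (1.38, 0.069) and Nmrk1 (1.32, 0.069) ended too. That of Dhrs9 ended without any 1 of 10 of the 12 arrays and that of Cdcp1 without any 1 of 4. Probe sets without a gene symbol lie outside every comparison above: 120 of 7372 (1.63%) were called between ZT8 and ZT20 in C57BL/6 WT liver, against 735 of 16201 (4.54%) with 1 symbol.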

How the results depend on the processing

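The 890 genes became 328 with the 6 compared arrays fitted alone, which leaves 4 residual degrees of freedom, and 2319 with array weights. With 1 of the 6 arrays left out the count ran from 509 to 974. Other settings gave 630 to 1278: quantile normalization (668 higher and 610 lower), centred medians (500 and 697), pseudocounts of 1 and 64, no filter, a filter of the lowest 60%, the 18 WT arrays, no trend and all probe sets. The block for the replicate number gave 884, and for the 6 arrays alone, an alternative added after the data were seen, 956. Of 81 named genes called, the blocks kept 80 and 81, all scalings 78 or more, the 6 arrays alone 61 and the fits without 1 array 68 to 76, with 0 reversed. Reversed were Hlf with centred medians (−0.0021) and Rora, at −0.068 to 0.16 with 1 array left out and below 0 without ZT20 replicate 1, neither called. Leaving out 1 array gave 709 to 1272 in KO-labelled livers, 217 to 398 in the mixed background, and 4 to 29 for the difference between backgrounds, which was 3 with centred medians and 6 with the 60% filter. The difference between genotype labels stayed at 0. The cause of these moves was not tested.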

Other observations

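Further genes of small p outside the lists, picked after their values were seen, also differed between the times. Clpx, the unfoldase of a mitochondrial protease, read 8.61, 9.08 and 9.25 at ZT8 and 10.50, 10.71 and 10.64 at ZT20, a rise of 1.64 ± 0.15 (limma adjusted p = 6.13e-09), with 1.68 in KO-labelled livers and 1.70 in the mixed background. Dnmt3b, a DNA methyltransferase, rose by 1.47 and Ddc, aromatic amino acid decarboxylase, by 1.19, each without overlap. Ppard, a nuclear receptor related to Ppara, rose by 1.51 while Ppara fell by 0.58. Elovl3, a fatty acid elongase, rose by 1.34.

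Among genes of lipid release, Pnpla2, the triglyceride lipase ATGL, fell by 0.79 (limma adjusted p = 9.65e-05) and its inhibitor G0s2 rose by 1.48 (0.0353). Npc1 and Sort1, of cholesterol and lipoprotein traffic, fell by 0.86 and 0.94. A second, dimmer probe set gave 0.30 for G0s2, −0.47 for Npc1 and −0.22 for Sort1. Pik3ap1, an adaptor of PI3 kinase, fell by 1.15, from between 10.60 and 10.98 to between 9.52 and 9.67, and Tns2, a tensin, by 1.15. Apart from Ppara, these genes were not examined under other settings.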
